A study of Mus musculus with 8 samples.

Results

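The probes described here target genomic intervals listed as intergenic long noncoding RNAs on a mouse lung expression array. They were chosen by name alone, as every probe whose name in the scanner output is a chromosome, a start and an end followed by F or R. This gave 4449 of the 56605 probes on the array, and no measured value entered the choice. Of these, 2364 probes (53.1%) passed the software's test of being well above background in both mice of at least 1 group and were kept for the comparisons. The file headers name the mouse build mm9 (NCBI37), and all positions are given in it. F and R are used as the files write them and are called strands here. The files do not say whether they name the strand of the transcript or of the probe, so the results by strand set the letters apart and do not say which strand was transcribed. Whether an interval holds an annotated gene was not analysed here, so each interval is named by its position and probe.

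Long intergenic noncoding RNAs are transcripts that lie between protein-coding genes, are often spliced and polyadenylated, and carry no long open reading frame. Some act in the nucleus on the transcription of neighbouring genes and others act as scaffolds for proteins, while most have no known role. They are usually less abundant than messenger RNAs and differ more between cell types.

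The study asked whether feed holding CpG-oligodeoxynucleotide particles alters allergic airway inflammation in female BALB/c mice. NT mice ate standard feed for 70 days and received no ovalbumin (OVA). Ctrl-F mice ate the same feed and received OVA, Cap-F mice received OVA and ate feed with carbonate apatite particles without oligodeoxynucleotide, and ODNcap-F mice received OVA and ate feed with such particles carrying the class-B CpG-oligodeoxynucleotide MsST. By the study's methods the mice were 4 weeks old at purchase and were housed for 2 weeks first. OVA with aluminum oxide gel was injected on Days 42, 49 and 56 of feeding, and OVA was inhaled from Day 63 to Day 69. The labels place the OVA after the 70 days of feeding instead. Total RNA of the whole lung came from 2 mice per group, with 1 single-color array per mouse. All 8 arrays sat on 1 slide and were read in 1 scan. NT and Ctrl-F filled row 1 of the slide and Cap-F and ODNcap-F row 2, so a difference between groups in different rows and a difference between the rows cannot be told apart.

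All 10 lung markers were well above background on all 8 arrays, which fits the labelled tissue. Sftpc, the surfactant protein gene of alveolar type II cells, read between 17.6 and 17.64 on the log2 scale. On single arrays, 53.6% and 53.3% of the interval probes were well above background in the NT mice. The shares were 47.7% and 47.8% in Ctrl-F, 46.5% and 48.8% in Cap-F and 46.2% and 46.8% in ODNcap-F. Both NT arrays thus lay above the 6 arrays of OVA mice. The other probes showed the same order at higher shares, with 65.8% and 66% in NT and between 62.5% and 64% on the other arrays. The floor of an array, its lowest log2 value well above background, ran from 3.61 to 4.18. None of the spots was saturated (0 by the software's flag). The number of arrays limits the precision.

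The signal of many interval probes lay near background. Of the kept interval probes, 76.1% were well above background on all 8 arrays, against 87.8% of the other kept probes, and 1751 interval probes (39.4%) were so on no array. Another 334 passed on some arrays without passing on both of a group. Of the kept probes, 1799 passed on all arrays of all 4 groups, 245 in NT only, 207 in NT and some OVA groups, 50 in the 3 OVA groups and not NT, and 63 in 1 or 2 OVA groups and not NT. The filter uses the same values that are then compared between the groups. The counts and medians of kept probes below are therefore descriptions and support no statement about intervals as a class.

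The 4449 probes stood for 3229 intervals on chromosomes 1 to 19 and X, from 62 to 538251 bases long with a median of 7207. F and R were close in number, with 2227 and 2222 probes, of which 1161 (52.1%) and 1203 (54.1%) were kept. Probes in the shortest of 4 length classes, of 62 to 698 bases, were kept in 43.3% of cases, and those in the longer 3 classes in 57.4%, 53% and 56.2%. By chromosome, the share kept ran from 43.9% on chromosome 3 to 63.1% on chromosome 17. The probes are not independent of each other. An interval and strand had several probes in 316 cases, with at most 6, and 1080 intervals overlapped another.

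Mice of a group were close to each other. Across the kept interval probes, which share arrays and are not replicates, Pearson's r between the mice was 0.992 for NT, 0.988 for Ctrl-F, 0.989 for Cap-F and 0.986 for ODNcap-F. Such an r mostly reflects the different levels of the probes, and no r between groups is given, so it does not measure how close the mice were. The mice of NT differed by over 2-fold at 19 interval probes (0.804%), against 1.1% of all kept probes. The counts were higher in the OVA groups, with 67 (2.83%) for Ctrl-F, 60 (2.54%) for Cap-F and 76 (3.21%) for ODNcap-F, against 1.69%, 1.92% and 1.86% of all kept probes. Neither mouse was the higher one throughout: mouse 2 was higher at 35 of the 67 in Ctrl-F and at 32 of the 76 in ODNcap-F.

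Ctrl-F against NT addresses the response to injected and inhaled OVA on standard feed, in mice of the same slide row. Of the 2364 kept interval probes, 486 (20.6%) were called, where a call means a change over 2-fold whose adjusted p in limma is below 0.05. Over all 37116 kept probes of the array 22.1% were called, so the share among intervals lay near that of the array. By direction, 178 interval probes (7.53%) were higher in Ctrl-F, against 10.4% of all kept probes, and 308 (13.0%) were lower, against 11.7%. Rises thus made up 36.6% of the interval calls and 47.7% of the calls among the other probes. In whole lung, fewer cells of a type and less RNA per cell cannot be told apart.

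The median log2 fold change of the interval probes was -0.16, beside -0.096 over all kept probes. With no filter on dim probes it was -0.001, beside 0.003 over all. Rises of 3 or more on the log2 scale were found at 1.06% of the interval probes and at 2.45% of the others, and falls beyond 3 at 0.338% and 0.331%. Falls of between 1 and 2 made up 12.1% of the interval probes and 10.3% of the others. These are the fitted values, with those of probes below background included.

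**Figure D1:**
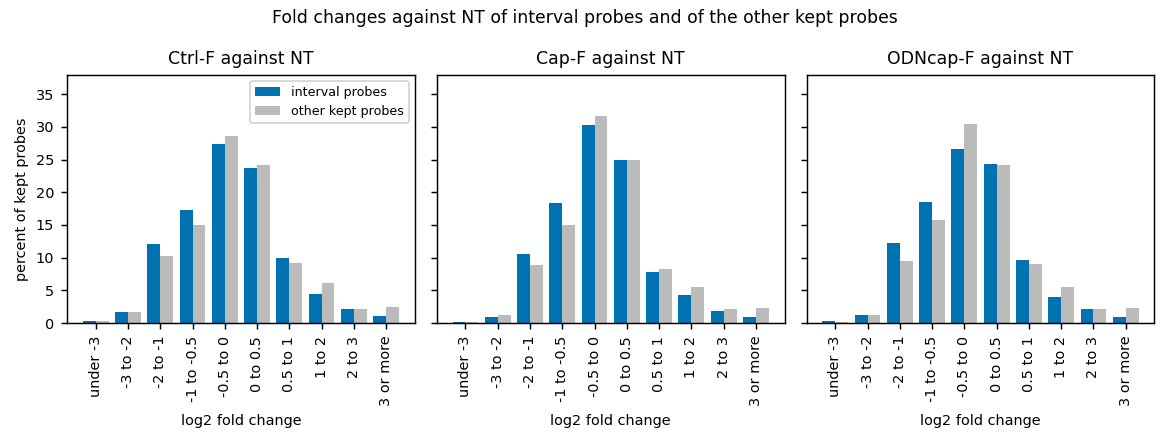
Distribution of the fitted log2 fold changes against NT for the interval probes and the other kept probes, as the percent of probes in each bin of log2 fold change, with 1 panel for each of Ctrl-F, Cap-F and ODNcap-F. In the bin of 3 and above, interval probes made up 1.06% against 2.45% of the others in Ctrl-F against NT, and in the bin from -2 to -1 they made up 12.1% against 10.3%.

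Part of these calls rests on values below background. Among the rises, 57 had both NT arrays below background, and among the falls 86 had both Ctrl-F arrays below it. For such a probe only a lower bound of the fold change can be given, with each array below background set to the larger of the probe's value and the lowest value well above background on that array. The bound passed 2-fold for 42 of the 57 rises and for 24 of the 86 falls. In the 1799 interval probes well above background on all arrays, where no such bound is needed, 288 (16.0%) were called, 111 higher and 177 lower, against 18.9% of all probes passing that filter. There the rises made up 38.5% of the calls, against 47.9% among the other probes, and the median was -0.089 beside -0.076 over all.

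The count differed under other processing, and the cause was not tested. With normexp background correction, which adds 50 to each intensity before the logarithm, 130 interval probes were called and rises made up 46.9% of them. The median log2 fold change with normexp was -0.073, beside -0.059 over all probes. From the deposited table of log2 values, which holds the 1799 interval probes that passed on every array, the count was 279. For these 2 settings no called share over all probes is given, so their counts do not set the intervals apart from the array.

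By strand, 90 F probes were higher and 148 lower in Ctrl-F against NT, and 88 R probes were higher and 160 lower. The share called was 20.5% on F and 20.6% on R. By chromosome, the called share ran from 8.42% on chromosome 11, with 3 higher and 5 lower, to 29.6% on chromosome 3, with 6 higher and 28 lower. Rises outnumbered falls on chromosome 1, with 24 against 18, on chromosome 5, with 20 against 16, and by 1 on chromosomes 9 and 17, with 8 against 7 and 15 against 14. On every other chromosome falls were more numerous. These chromosomes, and the strands that follow, were chosen after their values were seen, and differences between chromosomes were not tested.

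Taken by chromosome and strand together, the F probes of chromosome 5 had the highest called share, 33.3%, with 13 higher and 12 lower. The R probes of chromosome 8 followed with 31% (7 higher, 15 lower) and those of chromosome 3 with 30.9% (4 higher, 13 lower). The lowest share was 6.52% on the F strand of chromosome 11, where 3 probes were lower and 0 higher by limma. Strands of a chromosome could differ in direction: on chromosome 14, F had 8 higher and 2 lower, while R had 3 higher and 10 lower. On chromosome 4, F had 6 higher and 2 lower, while R had 8 higher and 13 lower. Each of these counts is small, and neighbouring intervals contribute to them together.

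**Figure D2:**
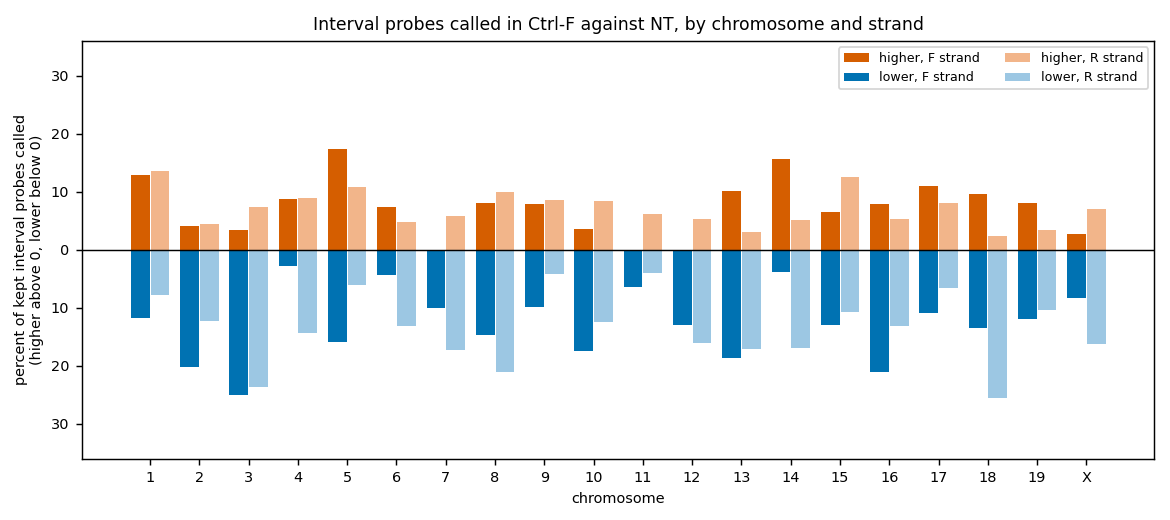
Percent of the kept interval probes called higher (bars upward) and lower (bars downward) in Ctrl-F against NT, by chromosome, with F and R as bars side by side. By count, falls outnumber rises on most chromosomes, with 6 higher and 28 lower on chromosome 3 over both strands, while chromosome 1 has 24 higher and 18 lower.

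The called share was higher in shorter intervals, a difference that was not tested. In the shortest class 26.3% of the kept probes were called, followed by 21.7% and 19.3%, and by 18.2% in the longest class. The medians were -0.34, -0.25, -0.07 and -0.07 in that order.

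Among interval probes above background in both groups, the largest rise in Ctrl-F against NT was at chr17:29378878-29379589, strand F (A_30_P01024145). It read 7.37 and 7.04 in the NT mice, 13.34 and 13.13 in Ctrl-F, 12.74 and 13.05 in Cap-F, and 13.05 and 13.41 in ODNcap-F. The 6 OVA mice lay far above both NT mice and close to each other, and the log2 fold change of Ctrl-F was 6.03 ± 0.19 (SE; adjusted p = 9.67e-06, limma). This interval lies within a longer one, chr17:29374758-29387733, also on strand F, whose kept probes did not rise alike. There A_30_P01020719, A_30_P01028898 and A_30_P01032951 had log2 fold changes of 0.33, -0.36 and 1.37 in Ctrl-F against NT, and only the last was called. At chr9:89167172-89168980, strand F (A_30_P01031689), the NT mice read 8.97 and 8.4, Ctrl-F 14.24 and 13.96, Cap-F 14.06 and 13.99, and ODNcap-F 14.21 and 14.69. The groups with OVA again did not overlap NT, with a log2 fold change of 5.41 ± 0.24 in Ctrl-F (adjusted p = 2.92e-05, limma). At chr7:140012053-140012509, strand R (A_30_P01018431), the NT mice read 5.09 and 5.2, Ctrl-F 11.09 and 10.82, Cap-F 10.29 and 10.54, and ODNcap-F 10.76 and 11.44. Its log2 fold change was 5.81 ± 0.23 (adjusted p = 2.2e-05, limma).

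The intervals named were ranked by the fitted log2 fold change, also where a group was below background, so the rank of a probe known only by a bound is not established. For 4 of the 10 rises ranked highest both NT arrays were below background. At chr1:171402829-171403289, strand R (A_30_P01024880), NT read 2.81 and 3.01, Ctrl-F 8.92 and 8.68, Cap-F 8.05 and 8.26, and ODNcap-F 8.66 and 9.21, which puts Ctrl-F at least 36.1-fold above NT. At chr15:58327703-58329443, strand R (A_30_P01021952), NT read 1.77 and 1.97 and Ctrl-F 7.83 and 7.41, at least 16-fold higher. This probe also had the widest gap within Cap-F among probes well above background in both mice, at 7.81 and 9.44, and ODNcap-F read 7.93 and 8.93. The third, chr13:15947521-15999246, strand F (A_30_P01023276), read 1.88 in both NT mice and 7.14 in both Ctrl-F mice, at least 11.4-fold higher. The fourth, chr1:94608820-94634671, strand R (A_30_P01023609), read 1.84 and 1.86 in NT and 6.79 and 7.22 in Ctrl-F, at least 10.4-fold higher. These 4 probes passed the filter through the OVA groups alone and their NT values lie below background, so no p is given for them.

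The remaining 3 of the 10 were measured above background in both groups. They were chr5:113594167-113645342, strand F (A_30_P01021303), with a log2 fold change of 4.63 ± 0.26, chr6:129151512-129208737, strand F (A_30_P01029340), with 4.33 ± 0.15, and chr8:82836971-82849309, strand R (A_30_P01022866), with 4.33 ± 0.23. Of these, A_30_P01029340 read 8.56 and 8.38 in NT mice, 12.87 and 12.74 in Ctrl-F mice, 12.53 and 12.44 in Cap-F mice, and 12.56 and 12.99 in ODNcap-F mice. The opposite strand of that interval (A_30_P01022593) was not called, and neither was the opposite strand of the chromosome 5 interval (A_30_P01019302).

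**Figure D3:**
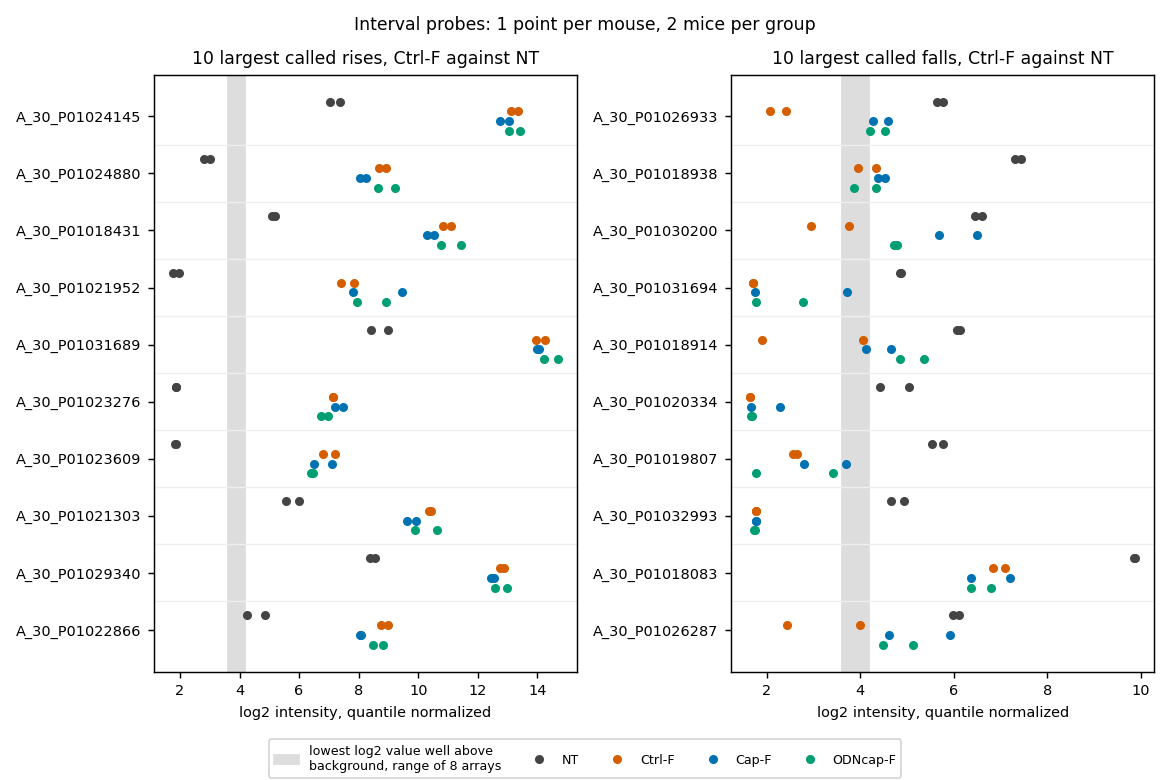
Log2 intensity of the interval probes with the 10 highest and the 10 lowest fitted log2 fold changes called in Ctrl-F against NT outside chromosome 18, 1 point per mouse and 2 mice per group, with the range over the arrays of the lowest value well above background (3.61 to 4.18) as a grey band. All 6 OVA mice lie above both NT mice for each of the rises, while many of the falls end in or below the band.

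The largest fall among those above background on all arrays was at chr1:183951156-183986156, strand F (A_30_P01018083). It read 9.86 and 9.88 in NT mice, 7.1 and 6.85 in Ctrl-F mice, 7.21 and 6.38 in Cap-F mice, and 6.79 and 6.37 in ODNcap-F mice. No OVA mouse reached NT, and the log2 scale value of Ctrl-F fell by 2.9 ± 0.29 (adjusted p = 0.000398, limma). At chr6:93029101-93031007, strand F (A_30_P01018938), NT read 7.31 and 7.44, Ctrl-F 3.95 and 4.34, Cap-F 4.52 and 4.38, and ODNcap-F 4.34 and 3.86. With 1 of the 2 Ctrl-F arrays well above background, it fell by 3.23 ± 0.19 on the log2 scale (adjusted p = 7.77e-05, limma).

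The other 8 of the 10 falls so ranked had both Ctrl-F arrays below background, and their order is not known. At chr10:8662761-8665101, strand R (A_30_P01026933), NT read 5.78 and 5.64, Ctrl-F 2.41 and 2.08, Cap-F 4.27 and 4.6, and ODNcap-F 4.22 and 4.52. Ctrl-F was at least 3.24-fold lower than NT, with the Cap-F and ODNcap-F mice between them. At chr8:124355710-124401160, strand F (A_30_P01030200), NT read 6.61 and 6.46, Ctrl-F 2.95 and 3.77, Cap-F 5.68 and 6.49, and ODNcap-F 4.79 and 4.72. Here Ctrl-F was at least 5.73-fold lower, and 1 Cap-F mouse reached the NT values. At chr9:78107225-78118850, strand F (A_30_P01018914), NT read 6.07 and 6.14, Ctrl-F 1.9 and 4.06, Cap-F 4.13 and 4.65, and ODNcap-F 4.86 and 5.37. At chr8:49911596-49912196, strand R (A_30_P01026287), NT read 6.11 and 5.99, Ctrl-F 3.99 and 2.44, Cap-F 4.62 and 5.92, and ODNcap-F 4.48 and 5.14. The bounds were at least 4.21-fold and at least 4.1-fold lower.

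The bound was at least 3.12-fold for chr17:32035750-32056000, strand R (A_30_P01019807). It stayed under 2-fold for chr13:23487906-23488198 (A_30_P01031694, 1.8), chr13:23488256-23488626 (A_30_P01020334, 1.64) and chr7:77555482-77634858 (A_30_P01032993, 1.71), all on strand F. The first of the pair on chromosome 13 read 4.88 and 4.85 in NT and 1.71 in both Ctrl-F mice, and its neighbour 4.42 and 5.04 in NT and 1.65 in both Ctrl-F mice. With normexp background correction 7 of these 8 falls, all but A_30_P01030200, no longer passed 2-fold, with fitted log2 fold changes between -0.86 and -0.48.

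An interval probed on both strands allows a comparison within 1 locus. Of 832 such intervals, 299 had kept probes on both strands, 162 on F only, 214 on R only and 157 on neither. In Ctrl-F against NT, 213 of the 299 had no call and 73 had a call on 1 strand, where the uncalled strand had the same sign in 40 and the opposite sign in 33. Both strands were called in 13 intervals, of which 5 were higher on both, 5 lower on both and 3 called in opposite directions.

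Among the rises on both strands, chr10:117021051-117038683 read 5.08 and 4.58 in NT and 7.94 and 7.91 in Ctrl-F on F (A_30_P01029964). On R (A_30_P01020169) it read 9.61 and 9.58 in NT and 12.23 and 12.13 in Ctrl-F. The strands rose together, by a log2 fold change of 3.1 ± 0.16 and 2.58 ± 0.22 (adjusted p = 5.21e-05 and 0.000221, limma). At chr1:85117750-85129200 the rise was 2.4 ± 0.19 on F (A_30_P01029479) and at least 2.93-fold on R (A_30_P01026202), where NT was below background. The log2 fold changes at chr13:16050871-16065396 were 1.16 ± 0.09 on F (A_30_P01026340) and 1.22 ± 0.12 on R (A_30_P01018267). Among the falls on both strands, chr17:26911397-26917047 fell by 1.29 ± 0.07 on F (A_30_P01027115) and by 1.14 ± 0.12 on R (A_30_P01019026, the only 1 kept of 6 R probes there). At chr13:94182877-94203852 the log2 value on F (A_30_P01024215) fell by 1.28 ± 0.26, and R (A_30_P01026215) was at least 2.6-fold lower.

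The 3 intervals with opposite calls were chr8:48476637-48492537, chr5:124667541-124700029 and chr6:148162552-148176577. At the first, F (A_30_P01032305) read 13.74 and 13.75 in NT mice, 15.86 and 16.01 in Ctrl-F mice, 15.88 and 15.67 in Cap-F mice, and 15.84 and 15.48 in ODNcap-F mice. R (A_30_P01022148) read 5.51 and 5.64 in NT mice, 4.42 and 4.48 in Ctrl-F mice, 4.63 and 4.79 in Cap-F mice, and 4.81 and 4.44 in ODNcap-F mice. F rose by 2.19 ± 0.14 on the log2 scale and R fell by 1.12 ± 0.14, without overlap between NT and any OVA group (adjusted p = 9.67e-05 and 0.000909, limma). On chromosome 5, F (A_30_P01018623) read 5.46 and 5.97 in NT and 6.95 and 6.94 in Ctrl-F, and R (A_30_P01027330) read 8.5 and 8.47 in NT and 7.21 and 7.25 in Ctrl-F. Their log2 fold changes were 1.23 ± 0.19 and -1.26 ± 0.1 (adjusted p = 0.0025 and 0.000183, limma). On chromosome 6, F (A_30_P01032263) changed by 1.05 ± 0.16 on the log2 scale and R (A_30_P01025690) was at least 2.46-fold lower. The calls of A_30_P01022148, A_30_P01018623, A_30_P01032263 and A_30_P01025690 were lost with normexp, at -0.38, 0.67, 0.36 and -0.41. The call of A_30_P01032263 was also lost with 75th percentile scaling, at 0.93, and from the deposited values, at 0.91. Without NT mouse 1 that of A_30_P01018623 was lost too, at 0.98, and without Ctrl-F mouse 1 that of A_30_P01032263, at 0.85. The rises of A_30_P01026202, A_30_P01026340 and A_30_P01018267 and the falls of A_30_P01024215, A_30_P01026215 and A_30_P01019026 were also under 2-fold with normexp, between 0.63 and 0.9 and between -0.64 and -0.44.

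**Figure D4:**
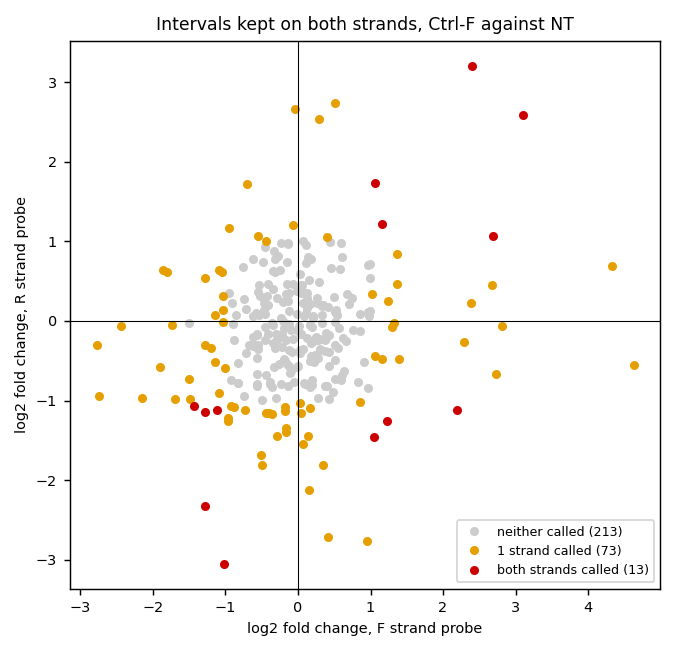
Log2 fold change in Ctrl-F against NT of the R probe against that of the F probe, 1 point for each of the 299 intervals with kept probes on both strands. Both strands are called in 13 intervals, of which 10 lie in the quadrants of equal sign and 3 in those of opposite sign.

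Several probes for 1 interval and strand mostly gave close values. Among 137 cases with several kept probes, 296 probes in all, the median range of the log2 fold change in Ctrl-F against NT was 0.349, and the range passed 1 in 22. All probes were called in 12 cases and always in 1 direction, some were called in 30, and none in 95. No case held calls in both directions by limma. The 5 interval probes printed 10 times on each array had a median SD within an array of 0.0324 to 0.0738. They all passed the adjusted p and none passed 2-fold, with log2 fold changes from 0.27 (A_30_P01020937, adjusted p = 0.0115, limma) to 0.89 (A_30_P01026611, adjusted p = 0.000174, limma).

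Called intervals also lay next to each other. Joined where the gap was under 100 kb, 2503 intervals formed 811 runs of at least 2 and 726 stood alone. Of these runs, 457 had at least 2 kept intervals and so could hold 2 calls. In 66 of them at least 2 intervals were called in Ctrl-F against NT, of which 17 held rises only, 37 falls only and 12 both. With 20.6% of the kept interval probes called, some runs would hold 2 calls in any case, and an excess of neighbouring calls was not tested. Since intervals in a run can belong to 1 transcript, they do not count as separate observations.

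The run with most calls was chr3:30032959-30133959, of 101 kb, where all 8 intervals were kept and called lower, each through an R probe. At chr3:30099759-30133959, A_30_P01022661 read 9.78 and 9.91 in NT mice, 8.48 and 8.54 in Ctrl-F mice, 8.72 and 8.68 in Cap-F mice, and 8.63 and 8.72 in ODNcap-F mice. It fell by 1.34 ± 0.08 on the log2 scale (adjusted p = 6.75e-05, limma). The F probe of the same interval, A_30_P01018556, read 4.07 and 3.83 in NT and 4.03 and 3.54 in Ctrl-F, which was below background. Its NT values lay near the floor, so it could not show a 2-fold fall and is not set against the R probe. The largest fall of the run was at chr3:30052149-30052393 (A_30_P01027620), which read 6.55 and 6.84 in NT mice, 4.36 and 4.67 in Ctrl-F mice, 5.01 and 5.42 in Cap-F mice, and 5.03 and 5.1 in ODNcap-F mice. The log2 fold changes of the 8 called probes lay between -2.18 and -1.34.

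At chr13:28477490-28985604, a run of 508 kb, 8 of 11 intervals were kept, all with R probes, and 6 were called lower. Among the 6, A_30_P01022276 read 10.43 and 10.48 in NT mice, 8.32 and 8.71 in Ctrl-F mice, 9.51 and 9.35 in Cap-F mice, and 8.71 and 8.8 in ODNcap-F mice, and fell by 1.95 ± 0.14 on the log2 scale in Ctrl-F (adjusted p = 0.000127, limma). The interval of 508115 bases that spans the run went the other way without passing 2-fold: A_30_P01027179 read 10.98 and 10.85 in NT and 11.45 and 11.38 in Ctrl-F (log2 fold change 0.5 ± 0.08, adjusted p = 0.00254, limma). Of the 6 calls, A_30_P01020227 and A_30_P01017692 had Ctrl-F below background, at least 1.49-fold and at least 1.22-fold lower.

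The run chr1:138442536-138632310, of 190 kb, held both strands. There 8 of 13 intervals were kept and 5 were called lower, 4 through F probes and 1 through an R probe. Of the 5, A_30_P01024637 on F had Ctrl-F below background and was at least 1.71-fold lower. The largest fall measured in both groups was at chr1:138570107-138632310 on F (A_30_P01033599), with 5.88 and 6.34 in NT mice, 4.34 and 4.26 in Ctrl-F mice, 5.03 and 4.84 in Cap-F mice, and 4.71 and 4.8 in ODNcap-F mice. It fell by 1.81 ± 0.16 on the log2 scale, while R of the same interval (A_30_P01023528) read 5.21 and 4.93 in NT and 5.44 and 5.93 in Ctrl-F, a log2 fold change of 0.62 ± 0.22 that was not called.

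**Figure D5:**
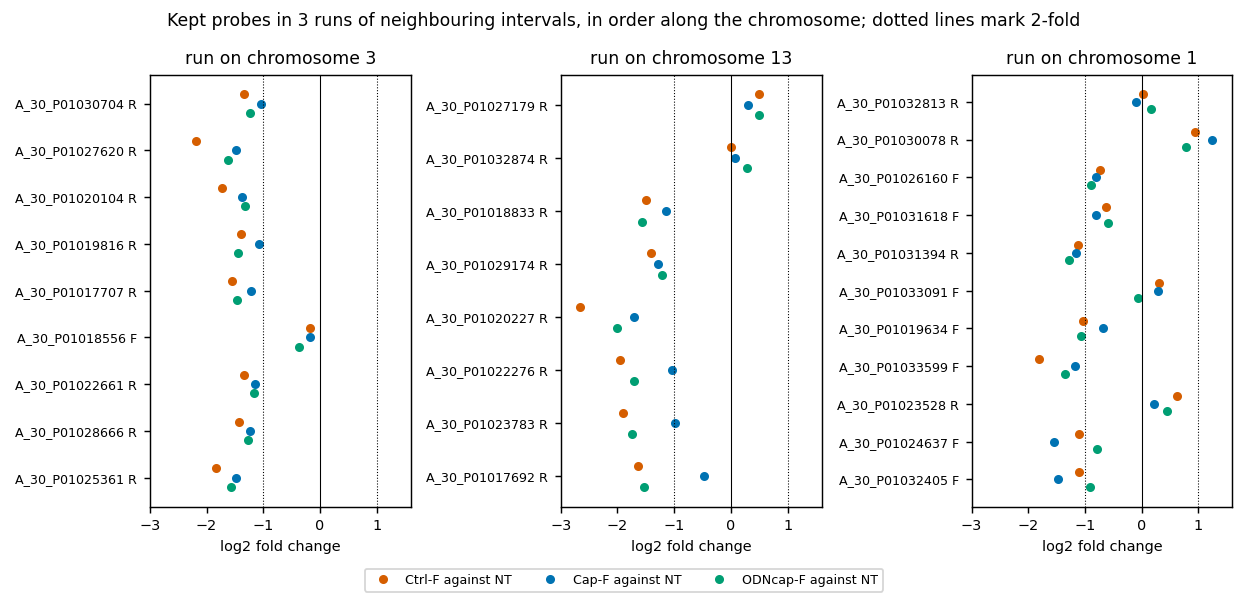
Log2 fold change against NT of each kept probe in the 3 runs of neighbouring intervals with most calls, in order along the chromosome, with 1 panel per run, 1 colour per comparison and the strand beside the probe name. Dotted lines mark 2-fold. On chromosome 3 all 8 R probes lie beyond a 2-fold fall in Ctrl-F against NT. The F probe there was near the floor in NT and below background in Ctrl-F, so it could not show such a fall.

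Cap-F against NT and ODNcap-F against NT address the response to OVA on the particle feeds. Both use the NT mice of the first comparison, so the 3 sets of values share their control and are given side by side. In Cap-F 403 interval probes (17.0%) were called, against 19.1% of all kept probes. Rises numbered 160 (6.77%), against 9.53% of all kept probes, and falls 243 (10.3%), against 9.59%. In ODNcap-F 471 (19.9%) were called, against 20% of all. Rises numbered 165 (6.98%), against 9.66%, and falls 306 (12.9%), against 10.4%. Rises made up 39.7% of the interval calls in Cap-F and 35.0% in ODNcap-F, against 50.4% and 49.1% among the other probes. The medians were -0.173 and -0.162, beside -0.103 and -0.11 over all kept probes, and -0.018 and -0.017 with no filter.

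Among probes well above background on all arrays, 222 (12.3%) were called in Cap-F against NT, 92 higher and 130 lower, where 16.1% of all probes were. In ODNcap-F the count was 262 (14.6%), with 94 higher and 168 lower, where 16.8% of all were. With normexp the counts were 101 and 125, with rises at 54.5% and 48.8% of them, and from the deposited table they were 208 and 259. Again no called share over all probes is given for these settings, so the counts are not set against the array. The normexp medians were -0.075 and -0.072, beside -0.062 and -0.069 over all probes. Both NT arrays were below background for 61 rises in Cap-F and for 59 in ODNcap-F. The OVA group was below background for 75 and 99 of the falls. The bound passed 2-fold for 38 and 41 of these rises and for 18 and 26 of these falls.

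The 5 rises ranked highest by the fitted value were at intervals already described. In Cap-F against NT the log2 fold change was 5.69 at A_30_P01024145, 5.34 at A_30_P01031689 and 5.26 at A_30_P01018431. With NT below background, A_30_P01021952 was at least 32-fold higher and A_30_P01023276 at least 13.1-fold higher. In ODNcap-F against NT the log2 fold change was 6.03 at A_30_P01024145, 5.95 at A_30_P01018431 and 5.76 at A_30_P01031689, while A_30_P01021952 was at least 27.9-fold and A_30_P01024880 at least 39.6-fold higher.

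Among probes above background in both groups, the largest fall in each comparison was at A_30_P01018083, which fell by 3.08 on the log2 scale in Cap-F and by 3.29 in ODNcap-F (adjusted p = 0.000382 and 0.000289, limma). A_30_P01018938 fell by 2.92 in Cap-F and was at least 8.84-fold lower in ODNcap-F, where both arrays were below background. A_30_P01032993 and A_30_P01020334, below background in the OVA groups, were also in both sets of 5, at least 1.67-fold and 1.6-fold lower in Cap-F and at least 1.59-fold and 1.52-fold lower in ODNcap-F. The last of the Cap-F set was chr12:89448550-89461843, strand F (A_30_P01031942), which read 4.86 and 5.1 in NT mice, 1.71 and 2.78 in Ctrl-F mice, 1.64 and 2.66 in Cap-F mice, and 2.76 and 1.63 in ODNcap-F mice, at least 1.9-fold lower. The last of the ODNcap-F set was A_30_P01019807, with 5.78 and 5.53 in NT and 3.42 and 1.77 in ODNcap-F, at least 2.89-fold lower. All but the first 2 of these falls were under 2-fold with normexp, between -0.74 and -0.44.

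By chromosome, the share called in Cap-F against NT ran from 7.41% on chromosome 19 to 27.8% on chromosome 3, and in ODNcap-F against NT from 8.42% on chromosome 11 to 29.6% on chromosome 3. On chromosome 1 rises numbered 24 in Cap-F and 20 in ODNcap-F, against 14 and 17 falls. Of the 299 intervals kept on both strands, both were called in 10 in Cap-F and in 8 in ODNcap-F, each time in 1 direction.

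Comparisons among the OVA groups ask what the particles, with or without oligodeoxynucleotide, changed. Limma called 0 interval probes in ODNcap-F against Ctrl-F, 0 in ODNcap-F against Cap-F and 0 in Cap-F against Ctrl-F, where 0%, 0.00269% and 0.00269% of all kept probes were called. The smallest adjusted p among interval probes was 0.169, 0.123 and 0.0967 in that order. At an unadjusted p under 0.05 and 2-fold, 22 interval probes (0.931%) passed in the first comparison, 14 higher and 8 lower, against 0.63% of all kept probes. There were 21 (0.888%) in the second, 9 higher and 12 lower, against 0.612%. The third had 30 (1.27%), 22 higher and 8 lower, against 0.897%. The local-pooled-error test named in the study's methods, rebuilt here, called 0, 3 (0.127%) and 15 (0.635%) interval probes, where it called 0.385%, 0.313% and 0.418% of all. Leaving out 1 array of a compared group gave some calls in limma in each comparison. Such a fit leaves 1 array in that group, and no called share over all probes is given for it. These calls therefore do not set the intervals apart from the array.

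In ODNcap-F against Ctrl-F, the higher probe with the smallest p was A_30_P01026933, whose values in every mouse are given above. Ctrl-F was below background there and 1 of the 2 ODNcap-F arrays was well above it, so no bound is given (adjusted p = 0.169, limma). The others were chr8:85952719-85958369, strand F (A_30_P01032499), and chr17:10517466-10522172, strand F (A_30_P01024614), with adjusted p of 0.357 and 0.51 in limma and both groups below background. On the lower side, chr8:71938275-72113375, strand F (A_30_P01018878), read 4.85 and 4.67 in Ctrl-F, 4.68 and 4.6 in Cap-F, 4.03 and 4.11 in ODNcap-F, and 5.23 and 5.24 in NT. ODNcap-F was below background and at least 1.56-fold lower than Ctrl-F (adjusted p = 0.357, limma). It was followed by chr13:94182877-94203935, strand F (A_30_P01029497), with 3.34 and 3.57 in Ctrl-F and 1.89 and 2.46 in ODNcap-F, both groups being below background, and by chr8:19678750-20038750, strand R (A_30_P01022122), with 4.17 and 4.38 in Ctrl-F and 3.38 and 3.51 in ODNcap-F. The last had 1 of the 2 Ctrl-F arrays well above background and ODNcap-F below it, so no bound is given. Without Ctrl-F mouse 1 limma called A_30_P01026933, a call that rests on a Ctrl-F value below background.

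In ODNcap-F against Cap-F, which lay in the same slide row, chr2:50152329-50289487, strand F (A_30_P01030602), read 4.15 and 4.02 in Cap-F and 5.01 and 4.98 in ODNcap-F, with 4.58 and 4.78 in Ctrl-F and 5.6 and 5.79 in NT. With 1 of the 2 Cap-F arrays well above background, the log2 difference was 0.91 ± 0.11 (adjusted p = 0.15, limma). At chr19:44651106-44657612, strand R (A_30_P01030298), ODNcap-F read 5.26 and 4.92, while NT read 2.82 and 3.35, Ctrl-F 2.42 and 3.28, and Cap-F 1.88 and 2.71. Only the ODNcap-F arrays were well above background at this probe, at least 2.05-fold above Cap-F. It passed the filter through ODNcap-F alone and was not called by limma, and no p is given for it. The third was chr2:173421598-173485043, strand R (A_30_P01023094), with 8.22 and 8.17 in Cap-F and 8.77 and 8.6 in ODNcap-F.

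On the lower side, chr1:134245856-134246607, strand F (A_30_P01021684), read 7.1 and 7.14 in Cap-F, 5.38 and 5.95 in ODNcap-F, 6.08 and 5.78 in Ctrl-F, and 4.91 and 4.86 in NT. The log2 difference of ODNcap-F from Cap-F was -1.45 ± 0.2 (adjusted p = 0.167, limma), with both Cap-F mice above all others. The local-pooled-error test called this probe and A_30_P01030298. The latter passed the filter through ODNcap-F alone and had Cap-F below background, so its call is no support for a difference. Limma called A_30_P01021684 without ODNcap-F mouse 2, at -1.74. The other lower probes were chr7:140016236-140016772, strand R (A_30_P01027377), with 5.14 and 5.21 in Cap-F and 4.69 and 4.72 in ODNcap-F, and chr4:56552801-56553404, strand R (A_30_P01023776), with both groups below background (adjusted p = 0.123, limma).

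In Cap-F against Ctrl-F, A_30_P01026933 was again the higher probe with the smallest p. Of the 2 Cap-F arrays 1 was well above background, so no bound is given (adjusted p = 0.0967, limma). A_30_P01032499 had Ctrl-F below background and 1 of the 2 Cap-F arrays well above it. The former was called with an intensity trend in the fit and without Ctrl-F mouse 1, and the latter without Cap-F mouse 1, and these calls rest on Ctrl-F values below background. At chr12:33606225-33638225, strand R (A_30_P01027995), Ctrl-F read 4.15 and 4.16 and Cap-F 4.99 and 5.15, at least 1.89-fold higher (adjusted p = 0.109, limma). The lower probes were chr16:29804864-29815614, strand R (A_30_P01019258), with 6.56 and 6.47 in Ctrl-F mice and 5.99 and 6.0 in Cap-F mice, A_30_P01023094, with 8.68 and 8.77 in Ctrl-F mice and 8.22 and 8.17 in Cap-F mice, and chr14:77511189-77522852, strand F (A_30_P01020003), with 7.61 and 7.73 in Ctrl-F mice and 7.12 and 7.11 in Cap-F mice. Their log2 differences lay between -0.55 and -0.52, with adjusted p from 0.109 to 0.132 in limma.

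Long noncoding RNAs with gene names give a comparison outside the interval probes. Of 61 on a list, 47 had a probe by RefSeq symbol, 42 were kept and 36 were well above background on all arrays. In Ctrl-F against NT 2 were called higher and 9 lower, where 10.4% of all kept probes were higher and 11.7% lower, and the median log2 fold change of the list was -0.26. In Cap-F 1 was higher and 7 lower (median -0.23), where 9.53% and 9.59% of all were. In ODNcap-F 2 were higher and 6 lower (median -0.2), where 9.66% and 10.4% of all were. With normexp the calls were 1 higher and 6 lower in Ctrl-F and 1 higher and 3 lower in both Cap-F and ODNcap-F. With the deposited values, and with probes well above background on all arrays, 2 were higher and 5 lower in Ctrl-F. Without NT mouse 1 the lower count in Cap-F was 4. The higher count was 1 in Ctrl-F and ODNcap-F without NT mouse 2, and 1 in ODNcap-F without ODNcap-F mouse 1.

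Pvt1, a host gene of microRNAs beside Myc, read 6.54 and 6.95 in NT mice, 8.67 and 8.43 in Ctrl-F mice, 8.61 and 8.53 in Cap-F mice, and 8.58 and 8.31 in ODNcap-F mice. Morrbid, which controls the lifespan of short-lived myeloid cells such as eosinophils, read 8.37 and 8.31 in NT mice, 9.37 and 9.34 in Ctrl-F mice, 9.27 and 9.31 in Cap-F mice, and 9.4 and 9.32 in ODNcap-F mice. Their log2 fold changes in Ctrl-F were 1.8 ± 0.17 and 1.02 ± 0.07 (adjusted p = 0.000344 and 0.000101, limma). Fendrr, which is needed for the development of heart and body wall and is transcribed beside Foxf1, read 15.52 and 15.53 in NT mice, 12.85 and 13.17 in Ctrl-F mice, 13.4 and 13.63 in Cap-F mice, and 13.16 and 13.27 in ODNcap-F mice. It fell by 2.51 ± 0.13 on the log2 scale (adjusted p = 5e-05, limma), with no OVA mouse near the NT values. Peg13, an imprinted RNA, read 14.01 and 13.91 in NT and 12.04 and 12.16 in Ctrl-F and fell by 1.86 ± 0.09 (adjusted p = 3.4e-05, limma).

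Mhrt, an RNA of heart muscle transcribed antisense to Myh7, read 7.18 and 6.3 in NT mice, 3.27 and 3.16 in Ctrl-F mice, 3.97 and 5.76 in Cap-F mice, and 5.34 and 5.84 in ODNcap-F mice, and was at least 6.61-fold lower in Ctrl-F. Its values are to be read beside those of the heart muscle markers below. Dio3os, antisense to Dio3, read 5.81 and 5.89 in NT and 4.24 and 3.56 in Ctrl-F, at least 3.29-fold lower. H19, an imprinted RNA of growing tissue, read 8.42 and 7.76 in NT and 6.96 and 6.12 in Ctrl-F, and fell by 1.55 ± 0.39 on the log2 scale (adjusted p = 0.0159, limma).

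Markers of several cell types moved between NT and the OVA groups together with the intervals, and their part in the interval results was not tested. Levels here are the log2 of the summed intensity of a list in each mouse. Clca3 of the mucous cell list, Igj of the B and plasma cell list and Chi3l3 of the alternatively activated macrophage list matched no probe. All 5 kept mucous cell markers of 6 listed were called higher in each OVA group against NT. Their sum was 10.84 and 11.68 in NT mice, 17.17 and 16.89 in Ctrl-F mice, 16.95 and 17.59 in Cap-F mice, and 17.38 and 17.66 in ODNcap-F mice, led by Muc5b in NT and by Clca1 in the other mice. All 5 kept B and plasma cell markers of 6 were called higher in each OVA group, led by Cd79b in NT and by Jchain in the other mice, with sums of 13.22 and 12.77 in NT mice, 17.16 and 17.07 in Ctrl-F mice, 17.06 and 17.15 in Cap-F mice, and 17.05 and 17.22 in ODNcap-F mice. For both lists the OVA mice lay far above NT.

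The 3 kept markers of alternatively activated macrophages, of 4 listed, were called higher in each OVA group, led by Chil3 in NT and by Retnla in the other mice. Their sums were 14.19 and 14.29 in NT mice, 17.99 and 17.93 in Ctrl-F mice, 18 and 18.02 in Cap-F mice, and 18.06 and 17.98 in ODNcap-F mice. All 4 markers of proliferating cells were called higher too, led by Mki67, from 10.17 and 10 in NT to 13.84 and 13.74 in Ctrl-F, 13.66 and 13.66 in Cap-F, and 13.67 and 13.7 in ODNcap-F. Of 4 eosinophil markers, 3 were called higher in Ctrl-F and ODNcap-F and 4 in Cap-F. Their sum, led by Siglecf, was 10.32 and 10.26 in NT mice, 12.12 and 12.25 in Ctrl-F mice, 12.32 and 12.23 in Cap-F mice, and 12.27 and 11.81 in ODNcap-F mice, and the granule gene Epx read 3.46 and 1.77 in NT and 8.22 and 8.55 in Ctrl-F. Of the 3 T cell markers, led by Cd3e, limma called 0 in Ctrl-F and ODNcap-F and 1, Cd3g, in Cap-F. It called 1 in Ctrl-F without NT mouse 1, and 0 in Cap-F without NT mouse 2. Their sums were 11.75 and 11.43 in NT mice, 12.26 and 12.2 in Ctrl-F mice, 12.28 and 12.26 in Cap-F mice, and 12.25 and 12.01 in ODNcap-F mice.

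Other markers were lower. Of the 10 lung markers, Hopx, Cdh5 and Cldn5, which mark alveolar type I and endothelial cells, were called lower in each OVA group. The sum of that list, led by Sftpc or Scgb1a1, was 19.53 in both NT mice, 19.21 and 19.23 in Ctrl-F, 19.25 and 19.23 in Cap-F, and 19.26 and 19.28 in ODNcap-F. Of the 3 red blood cell markers, led by Hba-a1, Hbb-b1 and Alas2 were called lower in each OVA group, with sums of 17.65 and 17.72 in NT mice, 17.36 and 17.31 in Ctrl-F mice, 17.26 and 17.36 in Cap-F mice, and 17.31 and 17.34 in ODNcap-F mice.

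Markers of muscle and fat varied between mice of a group. The 6 cardiomyocyte markers summed to 14.56 and 13.5 in NT mice, 11.32 and 11.96 in Ctrl-F mice, 11.57 and 13.62 in Cap-F mice, and 13.14 and 13.79 in ODNcap-F mice. Cap-F mouse 1 lay with the Ctrl-F mice at the low end, and the other mice were high. Myh6 led the sum in the high mice. In the 3 low mice Actc1 did, which was not called (10.81 and 10.6 in NT, 10.56 and 11.15 in Ctrl-F), while Myh6 read 13.83 and 12.62 in NT and 9.06 and 9.92 in Ctrl-F. Of the 6, 4 were called lower in Ctrl-F against NT and limma called 0 in Cap-F or ODNcap-F against NT. The Ctrl-F count was 0 when NT mouse 1 was left out, and 1 when NT mouse 2, a Ctrl-F mouse or an ODNcap-F mouse was, and with no filter on dim probes. In Cap-F it was 4 without Cap-F mouse 2 and by the local-pooled-error test, and 1 with normexp, the deposited values, an intensity trend and probes well above background on all arrays. In ODNcap-F 1 marker was called higher without either Cap-F mouse, with an intensity trend and by the local-pooled-error test. The 5 adipocyte markers, led by Cfd except in Ctrl-F mouse 1, where Lep led and was itself not called, ran alongside at 12.1 and 11.63 in NT mice, 8.27 and 9.08 in Ctrl-F mice, 8.47 and 10.95 in Cap-F mice, and 10.56 and 11.48 in ODNcap-F mice. There calls lower numbered 4 for Ctrl-F, 2 for Cap-F and 1 for ODNcap-F. The Ctrl-F count was 1 without either NT mouse, without Ctrl-F mouse 1 and with no filter. It was 2 without Ctrl-F mouse 2 or either ODNcap-F mouse, with probes well above background on all arrays and from the deposited values. The Cap-F count was 4 by the local-pooled-error test, and 1 with normexp, the deposited values, no filter, probes well above background on all arrays, and without either NT mouse, either Ctrl-F mouse or Cap-F mouse 1. The ODNcap-F count was 2 by the local-pooled-error test and without ODNcap-F mouse 2, and limma gave 0 with no filter and without either NT mouse or ODNcap-F mouse 1. Of 4 skeletal muscle markers 3 were kept and limma called 0 of them, while the local-pooled-error test called 1 each for Ctrl-F and Cap-F. Their sum, led by Acta1, was 8.99 and 8.78 in NT mice, 8.68 and 9.09 in Ctrl-F mice, 8.85 and 9.35 in Cap-F mice, and 9.14 and 9.31 in ODNcap-F mice, and Myh4 passed in both mice of no group.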

How the data were processed

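Lung RNA of 8 mice, 2 per group, was measured on 1 single-color array to a mouse. The authors deposited, per array, the background-subtracted and detrended intensity of each spot from Agilent Feature Extraction 11.0, with no normalization between arrays. The authors also deposited the raw median intensity of each spot and of its background, and other columns with spot types and flags. A deposited table holds log2 values of 32312 probes, quantile normalized by the authors.

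Flagged spot values (792) were set to missing, intensities were taken to log2, averaged per probe and quantile normalized over the 8 arrays with all 56605 probes. Probes that the software set well above background in both mice of a group were kept. All arrays entered 1 limma fit (limma 3.58.1, statmod 1.5.0, R 4.3.3, with version 1.17.8 of data.table) with the 4 groups and no covariate, with 4 residual and 1.96 prior degrees of freedom. P-values are two-sided and Benjamini-Hochberg adjusted over 37116 kept probes, and calls need an adjusted p under 0.05 and over 2-fold. Figures used Python 3.11.15, matplotlib 3.10.9 and pandas 2.3.3. Code was tested on simulated data.

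Alternatives were scaling to the 75th percentile, normexp with offset 50, the deposited values, a stricter filter and none, an intensity trend, blocks of equal replicate number, a fit of the compared groups, each array left out, the local-pooled-error test, no minimum fold change and counting by interval and strand. Named intervals were the 10 largest called changes each way in Ctrl-F against NT by fitted value, below background too, and 5 each way in Cap-F and ODNcap-F against NT. Among the OVA groups they were the 3 smallest p each way. Up to 5 intervals called on both strands in 1 direction and up to 5 in opposite directions were named, and the 3 runs with most calls, with gaps under 100 kb. Intervals on chromosome 18 were counted and not named. Gene symbols came from RefSeq and matched 32994 probes. The lists were annotated long noncoding RNAs and markers of lung, cardiomyocytes, adipocytes, skeletal muscle, mucous cells, eosinophils, B and plasma cells, T cells, alternatively activated macrophages, proliferating cells and red blood cells. Members and lists were chosen with earlier results of these data known.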

Additional observations from a re-analysis of the deposited data

How the results depend on the processing

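Counts of called interval probes against NT are given for Ctrl-F, Cap-F and ODNcap-F in that order. They were 130, 101 and 125 with normexp background correction (rises 46.9%, 54.5% and 48.8% of them, against 36.6%, 39.7% and 35.0%). They were 279, 208 and 259 from the deposited table, 288, 222 and 262 with probes well above background on all arrays, and 1273, 1126 and 1264 with no minimum fold change. The last 2 test fewer probes or use a wider rule, and for normexp and the deposited table the cause was not tested. No called share over all probes is given for normexp and the deposited table, so these counts are not set against the array. All 130 normexp calls in Ctrl-F against NT were among the 486. Leaving out each array gave 466 to 512, 377 to 407 and 456 to 477. Other alternatives stayed within 1.5 times, from 472 to 536 for Ctrl-F, 388 to 421 for Cap-F and 458 to 501 for ODNcap-F.

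In ODNcap-F against Ctrl-F 1 interval probe was called with no filter, and leaving out each array gave 0 to 13, with 13 and 7 without Ctrl-F mouse 1 or 2 and 10 and 5 without ODNcap-F mouse 1 or 2. In ODNcap-F against Cap-F, 1 was called with no filter and 3 by the local-pooled-error test. Leaving out each array gave 0 to 10, with 9 and 6 without Cap-F mouse 1 or 2 and 10 and 6 without ODNcap-F mouse 1 or 2. In Cap-F against Ctrl-F, 2 were called with an intensity trend and 15 by the local-pooled-error test. Leaving out each array gave 0 to 13, with 13 and 9 without Ctrl-F mouse 1 or 2 and 11 and 5 without Cap-F mouse 1 or 2. A lone array is assumed to vary like the other groups, and the cause was not tested. No called share over all probes is given with no filter, an intensity trend or an array left out, so those counts are not set against the array.

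The replicate numbers do not pair the mice: correlations of their differences between 6 pairs of groups ran from -0.0123 to 0.161. With the number as a block, 483, 404 and 469 interval probes were called against NT and 0, 0 and 0 among the OVA groups.

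The median log2 fold change of interval probes stayed negative, between -0.231 and -0.001 in Ctrl-F, -0.229 and -0.018 in Cap-F, and -0.23 and -0.017 in ODNcap-F against NT. The lowest came with the 75th percentile, where the medians over all probes were negative too, at -0.113, -0.123 and -0.126. The highest came with no filter, beside 0.003, -0.005 and -0.013 over all probes. Over the named intervals none changed direction. In Ctrl-F against NT 21 of their values under alternatives were no longer called, 17 of them with normexp. Alternatives for the gene lists were chosen after seeing the data. Signal over background limits the 86 falls in Ctrl-F against NT that end below it, for which a bound is given.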

Other observations

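Pairs of mice that differed most at interval probes well above background in both were chosen after their values were seen. On chromosome 5, chr5:14943275-14944205, strand F (A_30_P01019442), read 5.74 and 5.79 in NT mice, 9.37 and 8.98 in Ctrl-F mice, 7.77 and 6.96 in Cap-F mice, and 9.04 and 7.44 in ODNcap-F mice. Another interval on the same chromosome, chr5:15146475-15170100, strand F (A_30_P01031842), read 5.71 and 5.77 in NT mice, 8.98 and 8.76 in Ctrl-F mice, 7.46 and 6.76 in Cap-F mice, and 8.73 and 7.26 in ODNcap-F mice. In both, mouse 1 was the higher mouse of each OVA group. Both were called higher in Ctrl-F against NT (adjusted p = 0.0024 and 0.0022, limma).

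In NT, the widest such gap was at chr7:3338500-3360725, strand F (A_30_P01024053), with 4.22 and 6.48, while the OVA groups were below background. In Ctrl-F, A_30_P01020745 at chr17:74595885-74597555, strand R, read 4.5 and 5.99.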
